A study of Homo sapiens with 6 samples.

Results

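Kinesins, cytoplasmic dyneins and dynactin are the microtubule motors of the cell and their cofactor. The 73 motor genes described here are the protein-coding GRCh38 genes whose symbols start with KIF, KLC, DYNC, DYNLL, DYNLRB, DYNLT or DCTN, of 20037 protein-coding genes in all. The cells were PANC-1, an established line of human pancreatic ductal adenocarcinoma. Their polyA+ RNA was fragmented, pieces carrying N1-methylguanosine (m1G) were pulled down with an antibody, and both precipitate and input were sequenced. Cells depleted by siRNA of TRMT5, a methyltransferase that makes m1G in tRNAs, for 4 days gave 2 m1G precipitates and 1 input. The control cells, which the labels call WT, gave 2 m1G precipitates and 1 input, and whether paired precipitates came from different cultures is not labelled.

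The series was deposited as 2 peak lists. They name no library and no condition, so TRMT5-depleted cells are not compared with control cells here and values come without a replicate error. The MeTDiff list holds 18431 peaks, each with the fold enrichment of precipitate over input and a false discovery rate (FDR) of at most 0.05. The MACS2 list holds 6264 summits of 1 bp, each with a −log10 significance score of MACS2 (from p or q, which is not stated). Every fold, FDR and score below is the authors' own value. Read counts were not part of the lists. The depth behind a value is therefore unknown, and RNA abundance and the extent of methylation cannot be told apart in the presence of a peak. Of the PANC-1 epithelial keratin genes KRT7, KRT8, KRT18 and KRT19, 3 of 4 had a peak in both lists. KRT7 was the exception. None of the acinar marker genes PRSS1, CPA1, CELA3A and AMY2A (0 of 4) had one in either list. The same held for the islet marker genes INS, GCG, SST and CHGA (0 of 4). Over all protein-coding genes, 37.3% had a MeTDiff peak, 18% held a MACS2 summit and 16.8% had both. A missing peak therefore says little about cell type.

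Kinesins walk along microtubules, most of them towards the plus end, while cytoplasmic dynein walks towards the minus end and needs dynactin to do so with cargo. Transport kinesins carry vesicles, organelles and RNA, with kinesin light chains linking some cargoes to the kinesin-1 heavy chains. Mitotic kinesins slide, bundle or depolymerise the microtubules of the spindle and the midzone. The methyl group of m1G sits on the face of the base that pairs with cytosine.

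The sequence around the start is shown for 3 motor genes with m1G signal there. Summits fell within the first 30 bases of KIF5B, a kinesin-1 heavy chain gene, and of KLC1, a light chain gene of the same motor. In DYNLRB1, a roadblock-type dynein light chain gene, a MeTDiff peak ran across a start that RefSeq lists inside the gene. Each line gives 50 bases before and 30 bases after the start on the strand of the gene (RefSeq, GRCh38.p14), at chr10:32056396-32056475 (minus strand), chr14:103629161-103629240 (plus strand) and chr20:34516372-34516451 (plus strand). Capitals mark the 11 bases around the MACS2 summit in KIF5B and KLC1, and the bases of the MeTDiff peak in DYNLRB1.
KIF5B: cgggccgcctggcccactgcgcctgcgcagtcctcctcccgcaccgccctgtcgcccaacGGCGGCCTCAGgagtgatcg
KLC1: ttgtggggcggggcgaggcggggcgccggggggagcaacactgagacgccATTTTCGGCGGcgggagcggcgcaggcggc
DYNLRB1: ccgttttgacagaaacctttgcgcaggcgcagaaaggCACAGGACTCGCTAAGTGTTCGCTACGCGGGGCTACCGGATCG
The KIF5B summit was base 16 of the transcript and the KLC1 summit base 6. The capitals hold 5 G in KIF5B and 4 G in KLC1, and which G, if any, is methylated is not given by a peak.

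KIF1A, a kinesin-3 gene whose product carries synaptic and dense-core vesicles in neurons, had more m1G peaks than any other motor gene. It held 14 MeTDiff peaks and 9 MACS2 summits within its span of 107.6 kb on the minus strand (chromosome 2, 240713767 to 240821403). Of the 20037 protein-coding genes, 35 had at least as many MeTDiff peaks and 18 at least as many summits, KIF1A included in both counts. All 14 peaks carried 1 Ensembl gene ID, and no other protein-coding gene overlaps the span.

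The KIF1A peaks fell into a scattered set and a cluster, both away from the 5′ end. The first 9 peaks were scattered over the body of the gene, 6 of them spliced over several blocks. From 5′ to 3′ their folds were 7.08, 4.41, 2.16, 6.96, 20.4, 2.85, 3.83, 1.78 and 27.3. The strongest, of 27.3-fold, joined 3 blocks between 240722594 and 240724016 (FDR 0.000339), 9708 bp from the 3′ end of the gene. The next, of 20.4-fold, joined 2 blocks between 240758379 and 240760746 (FDR 8.71e-05). The other 5 peaks were unspliced, covered 1504 bp of a stretch of 2700 bp near the 3′ end, and had nearly equal folds of 3.75 to 4.22. None of the 14 was within 500 bp of an end of the gene. The 14 peaks carried only 8 different FDR values, from 8.71e-05 to 0.00407, so neighbouring peaks often shared one.

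The MACS2 summits of KIF1A were highest at the same places of strong enrichment. The highest score, 64.0, was at 240723641, rank 97 of 6264 in the list, and the next, 63.1, at 240758578. Both lay in the genomic extent of the spliced peaks of 27.3-fold and 20.4-fold, but 83 bp and 81 bp outside their blocks. A summit of 40.2 at 240797884 stood beside the peak nearest the 5′ end, and 1 of 24.6 at 240763328 inside the 6.96-fold peak. The 3′ stretch held 4 summits, with scores of 24.1, 6.91, 18.2 and 11.4 from 5′ to 3′. The remaining summit, of 9.75, lay 34 bp from the 2.85-fold peak. All 9 summits were within 100 bp of a block of a KIF1A peak, and 4 were inside one.

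**Figure D1:**
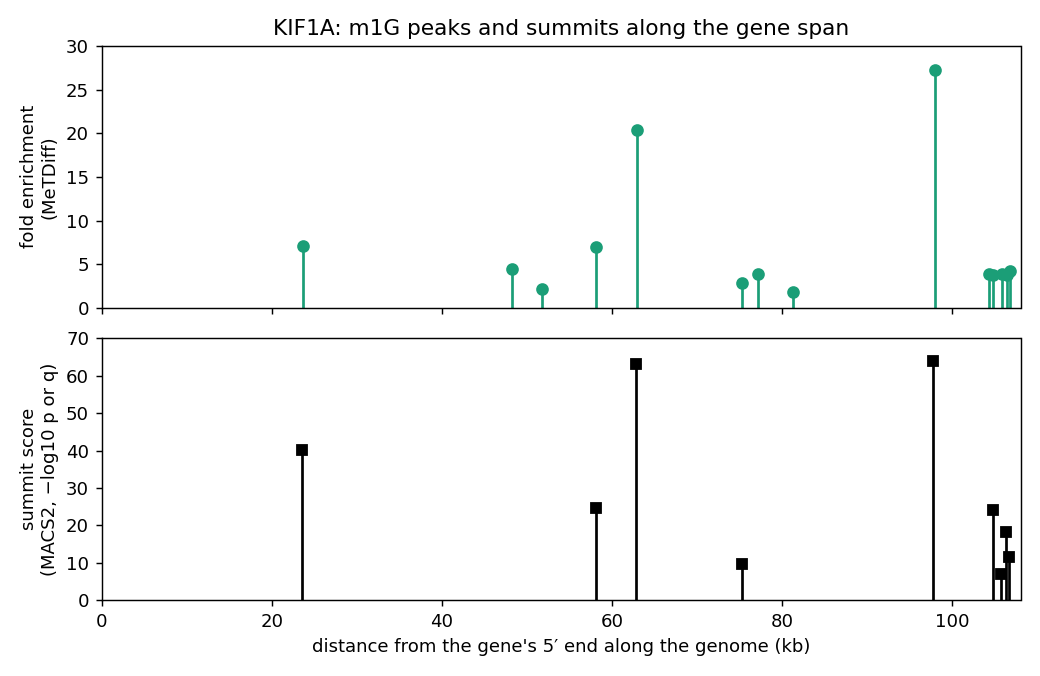
MeTDiff fold enrichment (top, circles at the middle covered base of each of 14 peaks) and MACS2 score (bottom, squares at each of 9 summits) against distance from the 5′ end of KIF1A along the genome in kb. The peaks of 20.4-fold and 27.3-fold stand beside the summits of 63.1 and 64.0, and 5 low peaks and 4 summits crowd near the 3′ end.

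Over all motor genes, 40 of 73 had a MeTDiff peak (54.8%), where 37.3% of all protein-coding genes had one. A summit lay in 22 of 73 (30.1%), where 18% of all protein-coding genes held one. Both lists marked 21 of 73 motor genes, where they marked 16.8% of all protein-coding genes. A further 19 motor genes had a MeTDiff peak alone, KIF5C had a summit alone, and 32 had neither. The 40 genes held 116 MeTDiff peaks with a median fold of 4.51, against 4.20 over the peaks of all protein-coding genes, and the motor gene folds ran from 1.5 to 47.9. The 57 summits had a median score of 19.5, against 16.4. A peak of 20-fold or more was found in 6 of 73 motor genes, against 2.05% of all protein-coding genes. Of the 40 genes, 17 had 1 peak, 16 had 2 to 4 and 7 had 5 or more. The last were 9.59% of the 73 motor genes, against 4.58% of all protein-coding genes. Motor genes are also long, with a median span of 47.4 kb against 24.1 kb for all protein-coding genes. Over all protein-coding genes, those with a peak were the longer ones (median 27.5 kb, against 21.9 kb without). Among the motor genes the order was the reverse (median 39.4 kb, against 50.6 kb without). The part that span length and RNA abundance have in these shares was not tested.

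**Figure D2:**
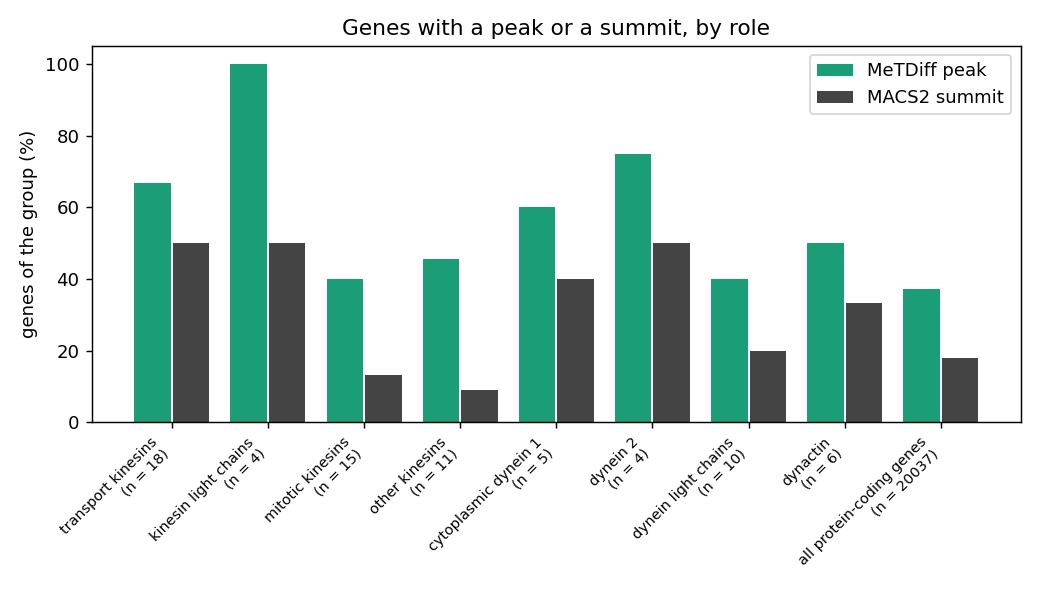
Share of genes in percent with at least 1 MeTDiff peak on their strand (green) and at least 1 MACS2 summit in their span (dark grey), for 8 role groups of motor genes and for all protein-coding genes, with the number of genes under each name. Transport kinesins stand at 66.7% and 50.0%, mitotic kinesins at 40% and 13.3%, and all protein-coding genes at 37.3% and 18.0%.

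Transport kinesins had peaks in a larger share of genes than mitotic kinesins. In the MeTDiff list 12 of 18 transport kinesin genes (66.7%) and 6 of 15 mitotic kinesin genes (40%) had a peak, and in the MACS2 list 9 of 18 (50.0%) and 2 of 15 (13.3%) held a summit. The 6 include KIF15, whose only peak may belong to TMEM42, and leaving it out gives 5 of 15. The mitotic kinesins were thus near the shares over all protein-coding genes, 37.3% and 18%, and the transport kinesins above both. The 48 transport peaks and 10 mitotic peaks had similar median folds of 3.925 and 3.855, so the groups differed in how many genes and peaks were called more than in the typical peak. The largest fold per gene had a median of 8.01 in transport kinesins and 4.515 in mitotic kinesins. Spans differed too, with medians of 81.0 kb for transport and 34.1 kb for mitotic kinesin genes. Genes are not replicates of a condition, and these differences were not tested. Without KIF1A, 11 of 17 transport kinesin genes still had a MeTDiff peak and 8 of 17 a summit.

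KIF5B, the widely expressed heavy chain of kinesin-1, had the largest fold of all motor genes from its only peak. That peak reached 47.9-fold, rank 25 of 18431, and covered 150 bp from base 51 of the transcript (chromosome 10, 32056226 to 32056375, FDR 3.16e-07). Its summit of 57.5, in the start sequence above, lay 35 bp upstream of the peak. The neuronal heavy chain genes differed from it. KIF5A had 1 spliced peak of 6.40-fold in the body of the gene (chromosome 12, 57569681 to 57570084, FDR 0.0117), and KIF5C had no peak but a summit of 7.02 at base 175.

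KIF16B, a kinesin-3 that moves early endosomes, and KIFC3, a minus-end-directed kinesin of epithelial junctions and the Golgi, followed KIF5B in fold. The only KIF16B peak reached 38.8-fold (chromosome 20, 16273150 to 16273250, FDR 0.00115), 1096 bp from the 3′ end of a span of 301 kb. Its summit score was modest at 10.5, rank 4626 of 6264, and lay 57 bp from the peak. KIFC3 held 7 peaks, 6 of them spliced, with folds of 3, 11.5, 7.67, 11.3, 2.75, 3.70 and 38.5 from 5′ to 3′. Its 38.5-fold peak (chromosome 16, 57758317 to 57759132, FDR 1.05e-05) covered 601 bp at 400 bp from the 3′ end and held the summit of 38.4. The FDR of the other 6 peaks ran from 9.33e-06 to 0.0120, and the other summits scored 12.8 and 21.6.

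KIFC2, another minus-end-directed kinesin, is a short gene of 8.15 kb with 6 peaks and 8 summits. Its folds were 11.4, 6.22, 10.0, 12.3, 4.20 and 3.79 from 5′ to 3′, and its highest summit, 54.7, lay inside the 12.3-fold peak (chromosome 8, 144468827 to 144470606, FDR 2.34e-05). The FDR of the other 5 peaks ran from 0.000417 to 0.00708. The first and last peaks lie where the spans of other protein-coding genes overlap KIFC2, but all 6 carried 1 Ensembl gene ID. KIF1C, a kinesin-3 that carries vesicles and mRNA, held 6 peaks with folds of 5.25, 2.18, 2.81, 6.85, 3.30 and 2.50 and FDR from 0.000135 to 0.000955. The first of them joined 4 blocks and began at base 51 of the transcript (chromosome 17, 4998000 to 5000257). Its 4 summits scored from 2.13 to 14.1.

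KIF3B and KIF3C, motor subunits of heterotrimeric or heterodimeric kinesin-2, had 4 peaks of up to 4.75-fold and 2 peaks of up to 3.81-fold. Both KIF3C peaks began in its first 500 bases, and its summit scored 12.6, whereas 3 of the KIF3B peaks lay in the last 3 kb of the gene. KIF21A had 2 peaks, of 9.17-fold and 3.75-fold, and a summit of 6.56. KIF13A and KIF13B, kinesin-3 genes, had 2 peaks each, of up to 2.50-fold and 4.00-fold, with no summit. KIF1B, KIF3A, KIF17, KIF21B and the kinesin-2 accessory subunit gene KIFAP3 had neither.

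All 4 kinesin light chain genes had a MeTDiff peak. KLC2 had 3 spliced peaks of 7.20-fold, 5.21-fold and 10.7-fold, the last at 66261771 to 66262219 on chromosome 11 (FDR 0.000661), and summits of 13, 31.3 and 34.6. KLC1 had 5 peaks on its strand, of which 3 carried the ID with most peaks. These were a 9.10-fold peak at the start (chromosome 14, 103629238 to 103629337, FDR 0.000355), which lay 22 bp from the summit of 23.6 in the start sequence above, and further peaks of 2.65-fold and 5.38-fold. The other 2, of 2.54-fold and 3.83-fold, belonged to 2 further IDs, and a second KLC1 summit of 6.80 lay 1141 bp from any block. KLC4 had 3 peaks of 2.25-fold, 3-fold and 5.50-fold (FDR 0.00155, 0.00282 and 0.00676). The only KLC3 peak, of 5.14-fold (FDR 1.45e-07), lies where the span of ERCC2 on the opposite strand overlaps.

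Among the mitotic kinesins KIF18B, a kinesin-8 that acts on astral microtubules, had the strongest signal. Its peak of 17.3-fold joined a block near the 5′ end with a block 11 kb downstream (chromosome 17, 44936219 to 44947674, FDR 0.000309), and its summit of 43.2 lay 10 bp from the inner block. A second peak reached 2.09-fold (FDR 0.00933). KIF22, the chromosome-arm motor, had peaks of 4.97-fold and 5.03-fold (FDR 0.000324 and 0.00195), each with a summit inside, of 27.7 and 10.4, and the second lay 297 bp from its 3′ end. KIF18B and KIF22 were the only mitotic kinesin genes in both lists.

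The other mitotic kinesins with a peak had no summit. KIF11, the tetrameric motor that pushes spindle poles apart, had 1 peak of 6.37-fold that began at base 51 (chromosome 10, 92593180 to 92593279, FDR 0.00275). KIF2C, a depolymerase of kinetochore microtubules, had peaks of 3.71-fold and 2.59-fold (FDR 0.000389 and 0.000933), and KIFC1, a minus-end motor that clusters centrosomes, of 1.81-fold and 3.47-fold (FDR 0.000437 for both). The only KIF15 peak, of 4.00-fold (FDR 0.0380), lies inside the span of TMEM42 on the same strand and may belong to that gene, which would leave 5 of 15. No peak or summit lay in KIF2A, KIF2B, KIF4A, KIF4B, KIF14, KIF18A, KIF20A, KIF20B or KIF23, which include the central spindle motors of cytokinesis.

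Of the 11 kinesin genes in neither class, 5 had a MeTDiff peak and only KIF26A also held summits. KIF26A, an atypical kinesin that lacks motor activity, had 4 unspliced peaks of 11-fold, 30.7-fold, 7.50-fold and 10.5-fold, with FDR from 0.00204 to 0.0219. The first 3 lay within a few kb of each other and each contained a summit, of 14.5, 33.1 and 4.64, and the 30.7-fold peak was at 104176462 to 104176859 on chromosome 14. KIF7, a ciliary regulator of Hedgehog signalling, had peaks of 6.17-fold, 13.6-fold and 7.75-fold, the last nested inside the extent of the 13.6-fold peak (chromosome 15, 89628424 to 89629560, FDR 0.00617). Single peaks were listed for KIF9 (6.25-fold), KIF12 (3.50-fold) and the kinesin-binding protein gene KIFBP (2.47-fold). KIF6, KIF19, KIF24, KIF25, KIF26B and KIF27 had neither.

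**Figure D3:**
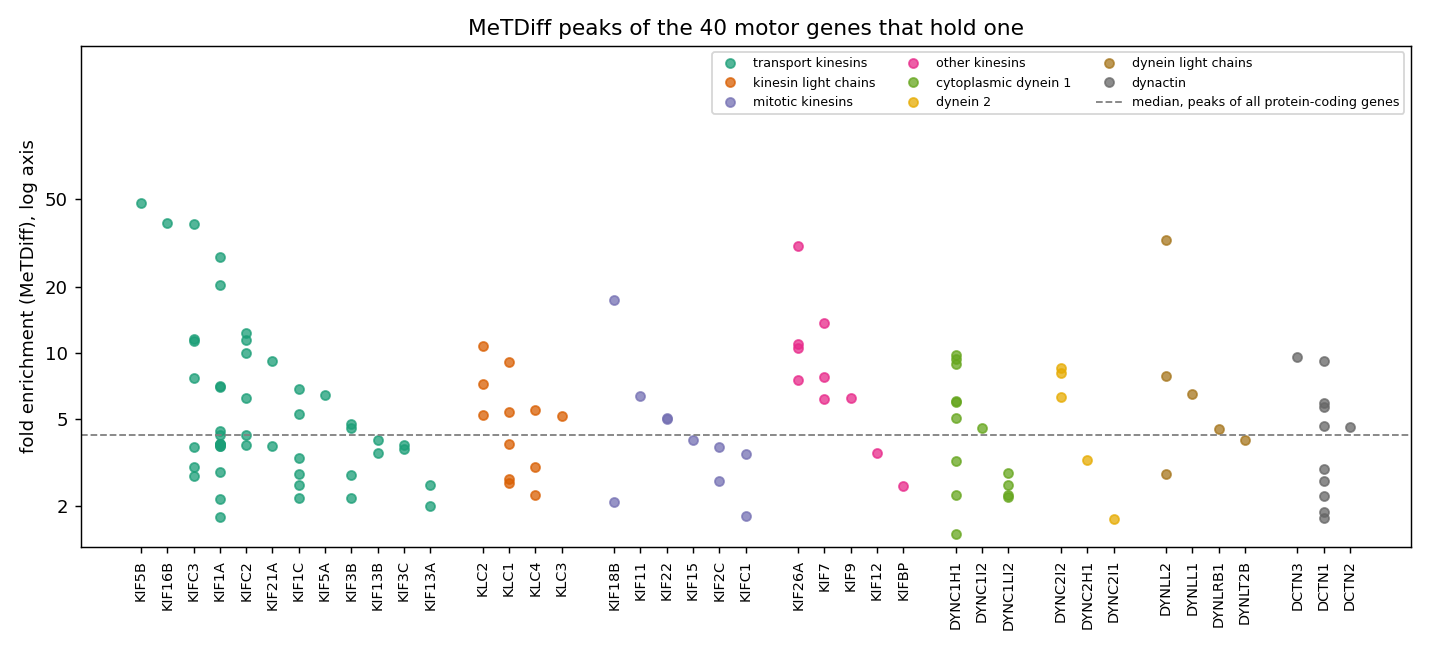
Fold enrichment on a log axis of every MeTDiff peak (1 point each) in the 40 motor genes that hold one, ordered within each role group by largest fold, with a dashed line at the median of 4.20 for the peaks of all protein-coding genes. KIF5B, KIF16B, KIFC3, KIF1A, KIF26A and DYNLL2 rise above 20, and genes with many peaks, such as KIF1A, DYNC1H1 and DCTN1, have peaks on both sides of the line.

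In cytoplasmic dynein 1 and in dynactin 1 gene each carried most of the peaks, 9 of 14 and 9 of 11. DYNC1H1, the motor heavy chain of cytoplasmic dynein 1, had 9 peaks over its span of 91.9 kb (chromosome 14, 101964573 to 102056443). From 5′ to 3′ their folds were 3.20, 9.80, 2.25, 1.5, 8.88, 9.32, 5.97, 5.05 and 6, and their FDR ran from 2.88e-06 to 0.000214. The first began at base 51 and contained a summit of 18.8. The other 4 summits scored 5.74, 25.5, 31.9 and 24.8, and the highest of them, at 102032212, lay 7471 bp from any block. DYNC1LI2, a light intermediate chain gene, had 4 peaks of 2.2-fold to 2.83-fold with FDR from 0.00105 to 0.0107, and no summit. DYNC1I2, an intermediate chain gene, had 1 peak of 4.55-fold over 3 blocks (chromosome 2, 171744161 to 171747971, FDR 2.63e-05) and a summit of 17.0. The paralogs DYNC1I1 and DYNC1LI1 had neither.

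DCTN1, which encodes the p150Glued arm of dynactin that binds dynein and microtubules, also had 9 peaks, the first of them 44% along the gene (chromosome 2, minus strand). Their folds from 5′ to 3′ were 5.67, 1.88, 2.95, 4.62, 2.22, 9.18, 5.91, 2.59 and 1.77, with FDR from 0.000204 to 0.00380. The strongest joined 3 blocks between 74366808 and 74367414 and held a summit of 24.7, and the neighbouring 5.91-fold peak held the highest summit, 25.8. DCTN3 had 1 peak of 9.55-fold that began at base 23 (chromosome 9, 34618716 to 34620473, FDR 0.00245) and a summit of 22.5. DCTN2, the dynamitin gene, had 1 peak of 4.6-fold (FDR 4.47e-05). The genes DCTN4, DCTN5 and DCTN6, whose products belong to the pointed-end complex, had neither.

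Dynein 2 moves cargo back from the tip of the cilium. Its intermediate chain gene DYNC2I2 had peaks of 8.50-fold, 6.30-fold and 8.08-fold (FDR 0.0135, 0.00135 and 0.00182) and summits of 24.9, 19.0 and 22.0. The first peak began 207 bp, and the first summit lay 131 bp, past a start that RefSeq lists inside the gene. The heavy chain gene DYNC2H1 had 1 peak of 3.25-fold in a span of 370.4 kb, DYNC2I1 1 peak of 1.75-fold with a summit of 5.69 elsewhere in the gene, and DYNC2LI1 neither.

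Among the 10 dynein light chain genes, 4 had a peak. DYNLL2 led with 32.8-fold, rank 100 of 18431, in a peak that began at base 51 (chromosome 17, 58083469 to 58083618, FDR 0.000692) and contained a summit of 50.1. Its other peaks had 2.80-fold and 7.83-fold. Its paralog DYNLL1, a light chain gene of both dynein and myosin V, had 1 peak of 6.50-fold (chromosome 12, 120496158 to 120496506, FDR 0.000245) with a summit of 34.6 inside. That peak begins 26316 bp from the 5′ end of the span but only 45 bp from a second RefSeq start. The gene table lists 7 DYNLL1 pseudogenes, and how reads shared with such copies were placed is not given in the sources used here. DYNLRB1 had the 4.50-fold peak of the sequence above (FDR 0.000123), and DYNLT2B a peak of 4.00-fold that starts 9 bp outside its annotated 5′ end (FDR 0.00407). No peak or summit lay in DYNLRB2, DYNLT1, DYNLT2, DYNLT3, DYNLT4 or DYNLT5.

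Position along the gene was set by the middle covered base of each peak. With a window of 500 bp, 13 of 116 motor gene peaks were at the 5′ end (11.2%), against 17.3% over all protein-coding genes. At the 3′ end were 7 (6.03%), against 6.72%, and the other 96 were inside (82.8%, against 76.0%). Counted by gene, 13 of 73 had a peak at the 5′ end and 7 at the 3′ end, where 14.4% and 5.6% of all protein-coding genes had one. The 13 peaks at the 5′ end had a median fold of 6.25, the 7 at the 3′ end of 5.03 and those inside of 4.455, and all 3 classes held folds above 38. The last 25% of the span held 57 peaks (49.1%), against 42.9% for all protein-coding genes, and 50 of 102 (49.0%) without KIF1A. With a window of 1000 bp, 12.9% of motor gene peaks were at the 5′ end, against 21.4%, and 8.62% at the 3′ end, against 15.4%. The share of peaks was thus lower in motor genes at the 5′ end with either window, while at the 3′ end the gap depended on the window. Counted by gene with the window of 500 bp, motor genes stood above the 14.4% and 5.6% of all protein-coding genes, but more of them had any peak. Of the genes with a peak, 13 of 40 motor genes and 2884 of 7470 protein-coding genes had one at the 5′ end. At the 3′ end these were 7 of 40 and 1123 of 7470.

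**Figure D4:**
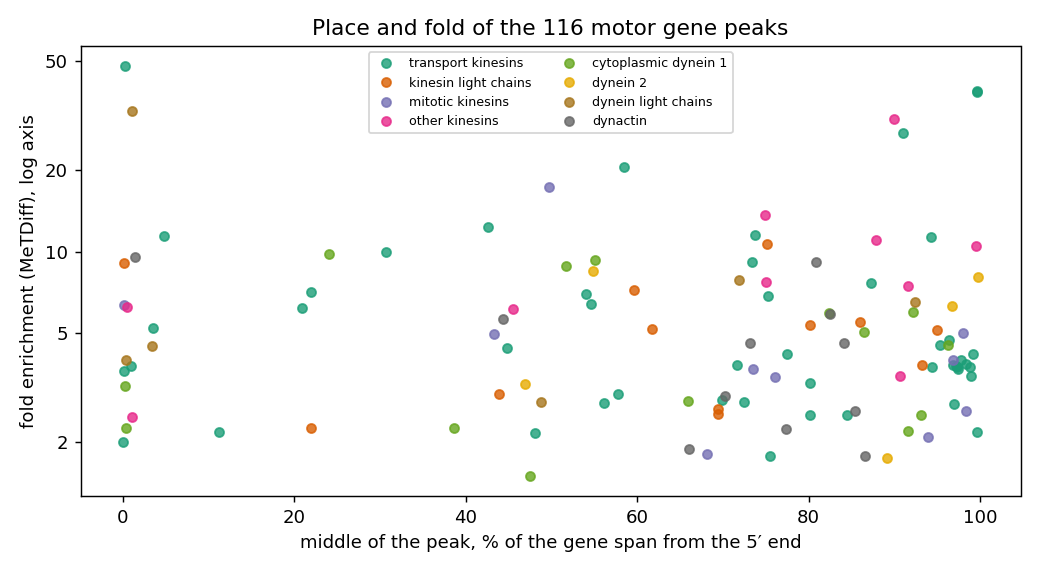
Fold enrichment on a log axis against the middle of each of the 116 motor gene peaks in percent of the gene span from the 5′ end, coloured by role. Peaks crowd at both edges of the span, and folds above 30 occur at the left edge (KIF5B, DYNLL2) and towards the right edge (KIF16B, KIFC3, KIF26A).

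A gene span can hide starts that lie inside it. For the 60 motor genes with starts listed by RefSeq, 16 of 90 peaks (17.8%) had a covered base within 500 bp of such a start. Over all protein-coding genes with starts, 24.4% of peaks did. Counted by gene, 15 of 60 motor genes (25%) had such a peak, against 20.1% of all protein-coding genes with starts. Of those with any peak, 15 of 32 motor genes and 3181 of 6149 protein-coding genes had such a peak. The 16 peaks had a median fold of 5.75, against 3.925 for the other 74 motor gene peaks. A set of 16 motor gene peaks began no more than 500 bp from the 5′ edge of the span, and 7 of them began exactly at base 51. They were in KIF13A, KIF1C, KIF5B, KIF11, DYNC1H1, DYNC1LI2 and DYNLL2. Over all protein-coding genes 11.8% of such peaks began at base 51. The covered lengths of motor gene peaks lay mostly near multiples of 50 bp. A first base is thus the coarse edge of a called stretch and does not mark a methylated base. In the first 50 transcribed bases, G made up a median of 40% in the 10 motor genes with sequence and a peak at the 5′ end and 40% in the 50 without one. The same medians over all protein-coding genes were 40% with such a peak and 32% without.

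In motor genes, as over all protein-coding genes, most summits lay outside the blocks of the MeTDiff peaks. Of the 57 summits, 24 lay inside a block of a MeTDiff peak of the gene (42.1%), against 36.9% of summits over all protein-coding genes. The exact Clopper-Pearson 95% interval for the 42.1% was 29.1 to 55.9, for counting error only. It treats summits as independent, although genes such as KIF1A held several, so it may be too narrow. The difference from 36.9% was not tested. A further 26 motor gene summits lay within 100 bp of a block. The other 7 were farther away or, for the KIF5C summit, in a gene without a peak. The shares within 100 bp and farther away were not counted over all protein-coding genes. The 24 peaks that held a summit had a median fold of 6.26, against 4.00 for the other peaks. Largest fold and highest score rose together over the 21 genes in both lists (Spearman correlation 0.62). Whether the lists were called on the same libraries is not given in the sources used here. KIF16B, with 38.8-fold and a score of 10.5, went against that order.

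**Figure D5:**
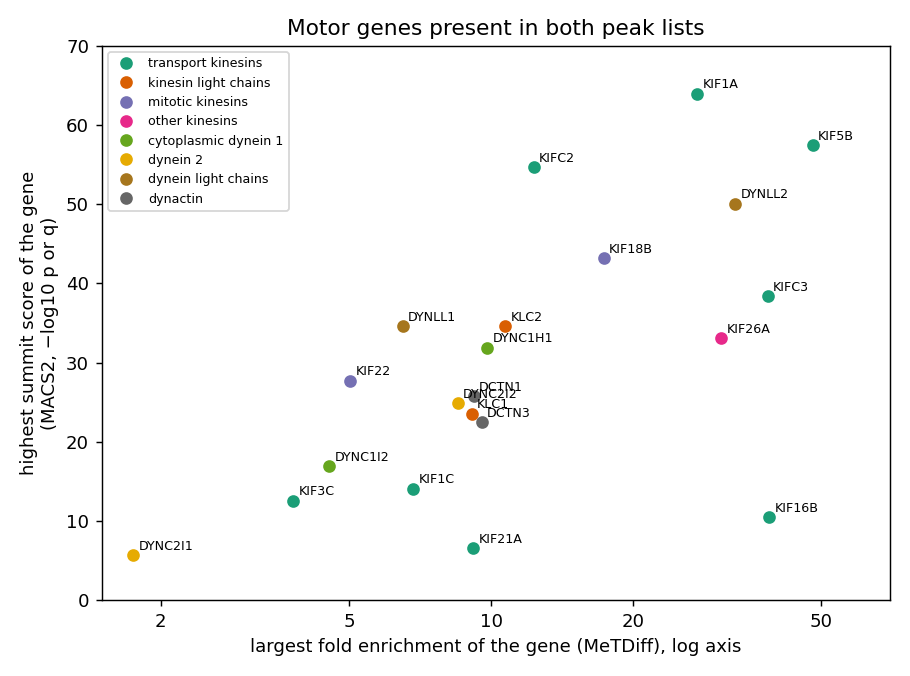
Highest MACS2 score against largest MeTDiff fold (log axis) for the 21 motor genes in both lists, 1 point per gene, coloured by role. KIF1A, KIF5B, KIFC2 and DYNLL2 have scores above 50, and KIF16B lies low at 10.5 in spite of 38.8-fold.

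Genes for partners of the motors often had peaks too. Of 41 genes for remaining dynactin subunits, motor adaptors and spindle partners, 29 had a MeTDiff peak (70.7%) and 17 a summit (41.5%). Over all protein-coding genes, 37.3% and 18% did. The 41 genes were also long, with a median span of 61.2 kb against 24.1 kb for all protein-coding genes. The part that span length has in these shares was not tested. The dynein adaptor gene HOOK2 had the largest fold, 34.0, with a highest score of 49.0, and its paralog HOOK1 had neither. NINL, a centrosomal dynein adaptor gene, reached 27.6-fold and HAP1, a huntingtin-associated adaptor gene, 21.3-fold. The kinesin-1 cargo adaptor genes CLSTN1 and SPAG9 had highest scores of 43.4 and 41.2. NUMA1 and MAPK8IP3 had 8 peaks each, of up to 16.9-fold and 15.2-fold. The dynein regulator gene PAFAH1B1, encoding LIS1, reached 14-fold. CENPE, a mitotic kinesin gene whose symbol falls outside the KIF series, had neither.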

How the data were processed

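Precipitate and input libraries of both conditions were sequenced, and 2 peak lists were deposited. STAR 2.7.1 and MACS2 2.2.5 and the build GRCh38 are named, per the submitters' processing notes. How each tool was run and which libraries were pooled is not given in the sources used here. The deposited MACS2 value is a −log10 p-value or q-value per summit. The deposited MeTDiff columns hold a p-value and the log10 of the FDR of each peak, and a fold enrichment (precipitate over input). Their order and values gave these meanings.

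Genes are protein-coding RefSeq genes (GRCh38.p14). A peak was given to each gene whose span it overlapped by 1 bp or more on the same strand, and a summit to each span that held it. Strand came from RefSeq promoter entries for 60 motor genes, from the ID with most peaks for 8, and 5 without peaks had none. Spliced peaks were placed by their middle covered base. Role lists and genes named were fixed in writing, with earlier results of these data known: every motor gene is named, with full detail for those with most peaks or highest scores. Counts are described beside the share over all protein-coding genes, with no test. Assignment was tested on simulated data for 3000 genes. Python 3.11.15, pandas 2.3.3 and scipy 1.17.1 were used.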

Additional observations from a re-analysis of the deposited data

How the results depend on the processing

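Over 12 counts and 27 alternative settings, 24 settings left the count within 1.5 times its reported value. The 3 that did not concern how peaks and summits are placed. Of the 57 motor gene summits, 24 lay inside a block of a peak, 37 inside the whole extent of a peak, introns included, and 50 within 100 bp of a block. With an end window of 250 bp, 4 motor gene peaks were at the 3′ end in place of 7. Each of these follows from the wider or narrower window itself. With an FDR of 0.01 or less, 37 of 73 motor genes kept a MeTDiff peak, 11 of 18 transport kinesins and 5 of 15 mitotic kinesins among them. With a score of 10 or more, 19 motor genes, 7 transport kinesins and 2 mitotic kinesins kept a summit. Leaving out peaks that lie in another protein-coding span left 38 motor genes. This alternative was not planned in advance, nor was the same rule for summits. Also unplanned were peaks wholly inside the span, only the ID with most peaks, and any base within 500 bp of an end. All unplanned settings are among the 24. Apart from the end windows, the shares over all protein-coding genes were not counted at the alternative settings. These counts therefore do not show whether motor genes stay above such shares. No paired analysis was possible because the lists do not name libraries, and no replicate could be left out for the same reason. Without read counts, the number of input reads behind a fold is unknown.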
